A study of Mus musculus with 3 samples.

Results

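The mitotic spindle and chromosome segregation genes examined here were 50 named genes, found by gene name among the 51826 rows of the expression table, each on 1 row with a value in every library. RNA was measured in the ST2 line, stromal cells from mouse bone marrow with the capacity to become osteoblasts or adipocytes. Control cells were transfected with empty vector plus control siRNA. NELL2 overexpression cells carried the NELL2 plasmid plus control siRNA, and Fn1 knockdown cells carried empty vector plus Fn1 siRNA, with siRNA at 30 nM throughout. NELL2 is a secreted glycoprotein, Fn1 encodes fibronectin, and the libraries were made to look for pathways downstream of these proteins. Each group was 1 library of transiently transfected cells of 1 line, so every value below is a difference between libraries with no replicate check, no test and no p-value.

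Mitosis runs on a short-lived set of proteins. Cyclin A and B bound to CDK1 start it, Aurora and Polo-like kinases build the spindle, kinetochores tie chromosomes to microtubules, and the spindle assembly checkpoint holds back the anaphase-promoting complex until every kinetochore is attached. Separase then cuts cohesin, kinesins and microtubule bundlers set up the midzone, and a contractile ring divides the cell. The genes for these proteins are transcribed late in the cell cycle, in S, G2 and M phase, largely through the NF-Y factor, the MuvB complex with B-MYB, and FOXM1, and their RNA is low in resting cells.

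Levels were FPKM, that is, fragments per kilobase of transcript, scaled to the mapped fragments of the library. Differences are given on the log2(FPKM + 1) scale, on which a gene was called when it differed by 2-fold or more (a difference of 1) and reached 1 FPKM in either library. This scale understates the difference of weakly expressed genes, so the plain percent of the control FPKM is given beside it. From the lowest values, the depth was estimated as 23200000 fragments for the control, 23700000 for NELL2 overexpression and 24300000 for Fn1 knockdown. Nell2 was at 0.640, 326 and 1.06 FPKM and Fn1 at 2802, 2489 and 137 FPKM in the same order, so Fn1 RNA in its knockdown library was 4.88% of the control. All 10 stromal markers were at 1 FPKM or more (7.40 to 2439 FPKM), and 2 of 7 blood cell, 1 of 4 endothelial and none of 9 epithelial, adipocyte and mature osteoblast markers reached 1 FPKM.

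In the Fn1 knockdown library RNA of the mitotic genes was lower than in the control for all 50 genes, against 50.5% of all 12574 genes compared. The median difference was -0.65 on the log2(FPKM + 1) scale, with a spread among the 50 genes of 0.20 (SD) and a range from -1.18 to -0.12, while over all genes the median was -0.0028 and the SD 0.34. Of the 50 genes, 31 (62%) were lower by 1.5-fold or more, compared with 3.32% of all genes, and 2 (4%) were called at 2-fold, compared with 1.23% of all genes in either direction. In percent of the control FPKM the genes ran from 42.7% to 91.3%, with quartiles at 56.3%, 61.5% and 68.8%. Fewer cells in mitosis and less of each RNA per cell cannot be told apart in such bulk libraries.

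The shift was a narrow one across the whole group rather than a large drop of a few genes. Only 5 genes lay below 50% of the control FPKM (Prc1, Cenpf, Plk1, Nusap1 and Cdc25c), 44 lay between 50% and 80%, and Cdk1 alone lay above 80%. Summed over the 50 genes, the control reached 1048 FPKM, the NELL2 library 978 FPKM and the Fn1 knockdown library 658 FPKM, or 62.8% of the control. Among all genes compared, 2.39% had a difference at or below the median of the mitotic genes.

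Blood cell markers were also lower in the Fn1 knockdown library, with a summed level over the 7 genes of 9.10 FPKM against 16.4 FPKM in the control and 18.5 FPKM with NELL2. Lyz2 (11.8, 13.9 and 7.22 FPKM in control, NELL2 and Fn1 knockdown) and Cd68 (4.08, 3.54 and 1.57 FPKM) made up most of it. The defining leukocyte gene Ptprc was at 0.0633 FPKM or less in every library, and Cd3e and Hbb-bs were listed at 0. The summed stromal markers were 6613, 6748 and 5993 FPKM.

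**Figure D1:**
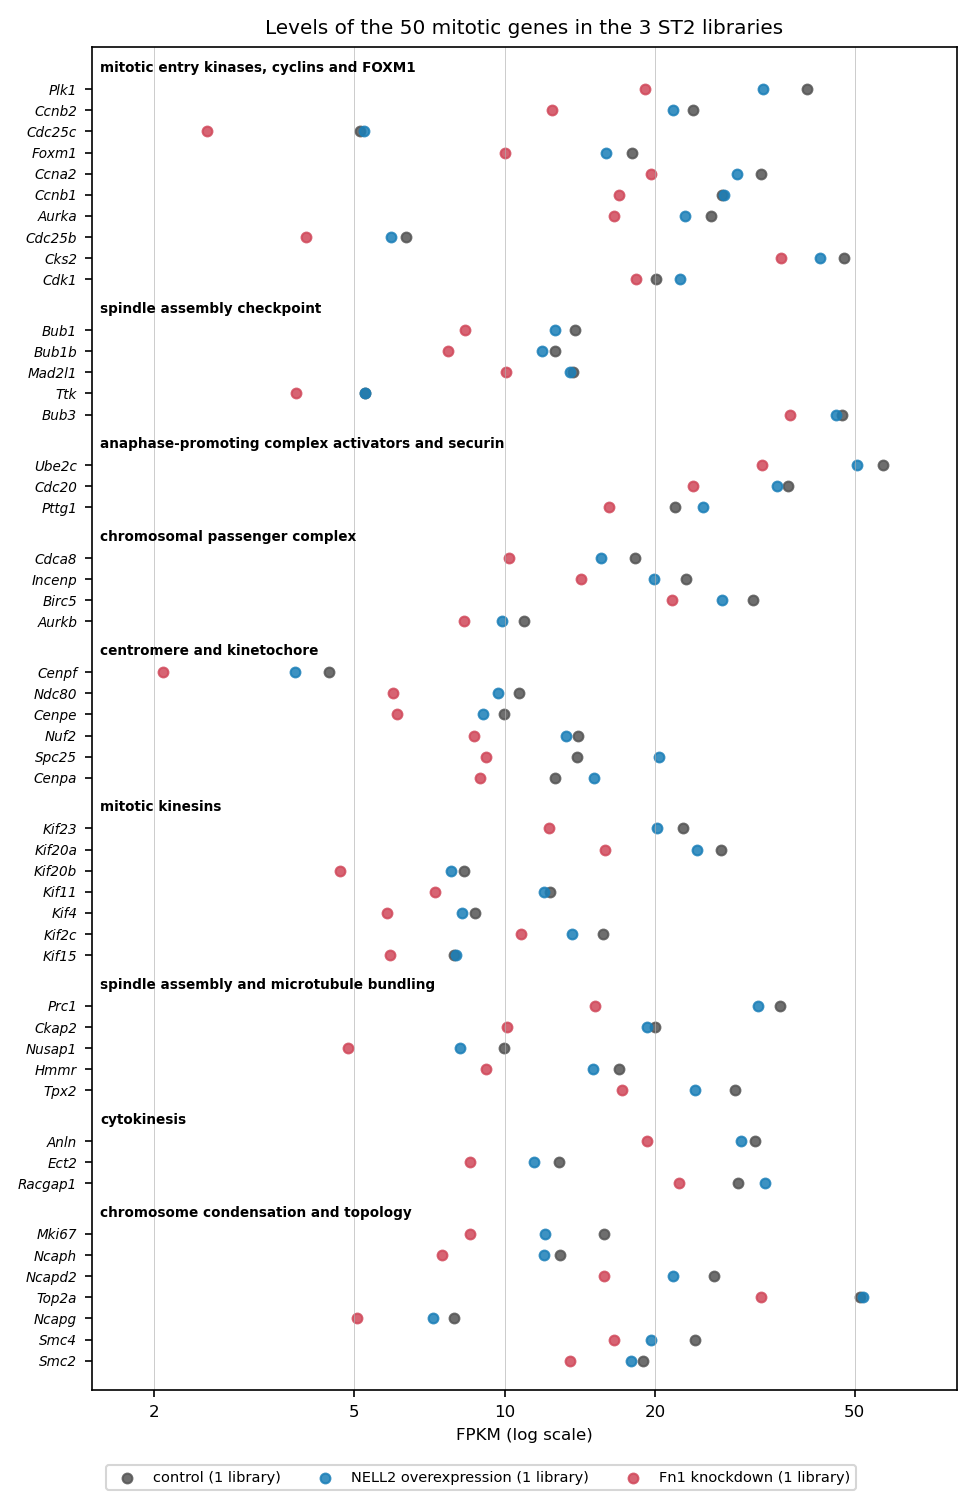
Level of each of the 50 mitotic genes (rows, grouped by role and ordered within a role by the difference after Fn1 knockdown) in FPKM on a log axis, 1 point per library. In every row the Fn1 knockdown point is the leftmost, from 2.08 FPKM for Cenpf to 37.1 FPKM for Bub3.

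The promoters of 6 of the genes are shown because they span the response to Fn1 knockdown. Plk1 and Prc1 were the called genes, Cenpf and Ccnb2 were also among the lower ones, and Cdk1 and Bub3 kept the most of their control FPKM. They were chosen after the values were seen. Each line gives the RefSeq sequence from 100 bases before to 50 bases after the annotated start, 5′ to 3′ on the strand of the gene, on GRCm38.p6. Capitals mark letters matching the cell cycle genes homology region (CHR, the MuvB-binding element), TTTGAA or TTCAAA on the other strand. Capitals also mark letters matching the box bound by NF-Y, CCAAT or ATTGG on the other strand. No marked letters overlap in these lines, and a match is not a measured binding site.
Plk1 (chr7:122159335-122159484, plus strand): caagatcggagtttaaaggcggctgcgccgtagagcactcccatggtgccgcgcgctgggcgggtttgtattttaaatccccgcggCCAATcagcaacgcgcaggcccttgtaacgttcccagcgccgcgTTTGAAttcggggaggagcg
Prc1 (chr7:80294351-80294500, plus strand): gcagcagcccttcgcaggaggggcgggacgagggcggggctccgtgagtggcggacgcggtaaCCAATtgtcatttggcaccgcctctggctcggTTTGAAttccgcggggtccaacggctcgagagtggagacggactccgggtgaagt
Ccnb2 (chr9:70421505-70421654, minus strand): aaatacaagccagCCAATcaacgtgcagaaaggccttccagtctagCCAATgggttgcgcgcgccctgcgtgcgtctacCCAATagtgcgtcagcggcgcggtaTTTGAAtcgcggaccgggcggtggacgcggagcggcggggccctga
Cenpf (chr1:189688037-189688186, minus strand): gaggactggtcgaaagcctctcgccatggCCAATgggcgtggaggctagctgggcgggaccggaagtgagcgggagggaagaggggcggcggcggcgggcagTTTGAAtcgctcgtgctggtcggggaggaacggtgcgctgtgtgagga
Cdk1 (chr10:69352863-69353012, minus strand): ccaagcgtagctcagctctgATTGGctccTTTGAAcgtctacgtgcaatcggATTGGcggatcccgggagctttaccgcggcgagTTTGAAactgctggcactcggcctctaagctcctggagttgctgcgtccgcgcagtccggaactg
Bub3 (chr7:131560270-131560419, plus strand): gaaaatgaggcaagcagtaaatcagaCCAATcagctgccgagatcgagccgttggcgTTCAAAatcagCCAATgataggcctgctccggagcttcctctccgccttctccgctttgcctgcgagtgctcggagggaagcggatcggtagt

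Counting bases from 0 at the annotated start, the CHR letters began at 30 in Plk1, at -5 in Prc1, at 4 in Ccnb2 and at 2 in Cenpf. In Cdk1 they occurred at -71 and -15, and in Bub3 at -43 on the other strand. Prc1 and Bub3 each had 2 RefSeq windows, of which 1 is shown. These 6 do not stand for the whole set. Among the other genes with large differences, Nusap1 (-0.90) had neither element in its window, and in Ckap2 (-0.92) the CHR letters lay further from the start, at -101, with an NF-Y box at -20.

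The same letters were then counted in the whole RefSeq windows of 300 bases (250 before and 50 after the start), on either strand. A window was held for 42 of the 50 genes, and the other 8 were Ccna2, Cdc25c, Foxm1, Aurkb, Incenp, Kif20a, Tpx2 and Smc4. TTTGAA was present in 31 of 42 mitotic genes (73.8%) and in 20.2% of all 27025 genes with a window. It was present in 14.2% of the 9117 genes that had a window and reached 1 FPKM in any library, the expressed genes below. Shares that follow are given for mitotic, expressed and all genes in that order. The variant TTCGAA, counted separately, was present in 4 (9.52%), 2.53% and 1.8%. CCAAT was present in 31 mitotic genes (73.8%), 43.6% of the expressed genes and 41.1% of all genes, and 2 or more copies of it in 20 mitotic genes (47.6%), 17.2% and 13.3%. Both TTTGAA and CCAAT occurred in 26 mitotic genes (61.9%), compared with 7.18% of expressed and 8.97% of all genes.

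Most matches in the mitotic genes lay close to the start. TTTGAA began within 50 bases of the start in 27 of 42 mitotic genes (64.3%), 3.81% of expressed genes and 5.72% of all genes, a distance chosen after the matches had been seen. In the 50 bases after the start, and counting 1 window per gene, 42.9% of the mitotic genes had a match and 1.19% of the other 9075 expressed genes. CCAAT matches lay further upstream, in 50% of the mitotic genes within the last 50 bases before the start and in 40.5% in the 50 bases before those, against 12.3% and 16.3% of the other expressed genes.

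**Figure D2:**
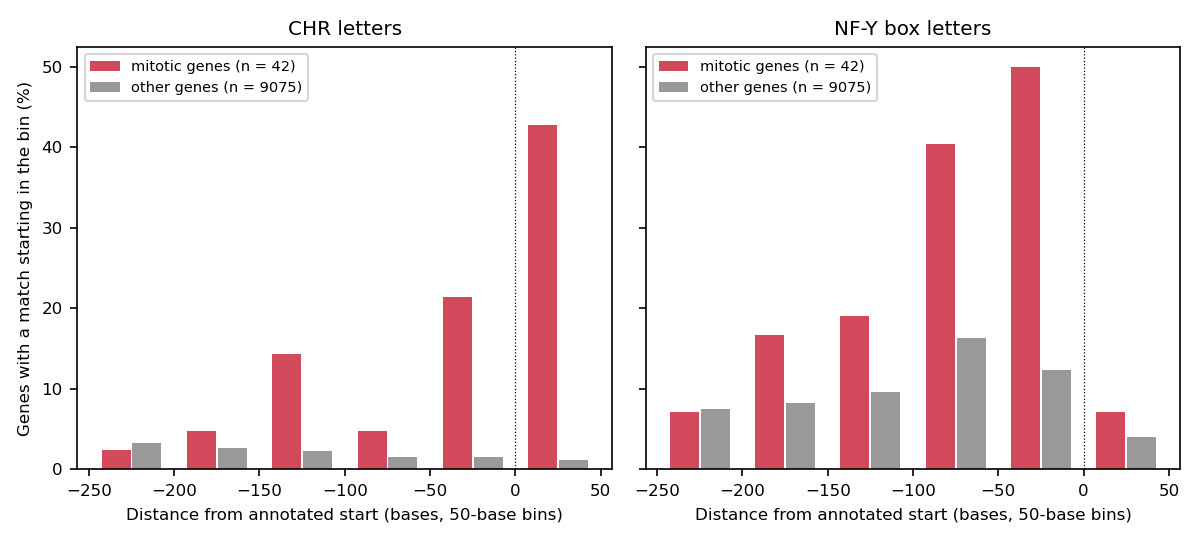
Share of genes (%) with a match beginning in each 50-base bin from 250 bases before to 50 bases after the annotated start (dotted line), for the CHR letters (left) and the NF-Y box letters (right), in 42 mitotic genes (red bars) and 9075 other expressed genes (grey bars). The mitotic genes peak just after the start for the CHR letters (42.9%) and just before it for the NF-Y box letters (50%).

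Mitotic genes with and without TTTGAA had close medians. The median difference after Fn1 knockdown was -0.64 in the 31 genes with TTTGAA and -0.63 in the 11 without. Those without TTTGAA included Bub1 and Cdc25b, which held the variant TTCGAA at 14 and 7, so they were not free of similar letters. Among other expressed genes, the 1261 with TTTGAA anywhere in the window had a median of -0.015 and 53.1% of them were lower, against -0.0020 and 50.3% in the 7814 without. By the distance chosen after the matches were seen, those 320 with TTTGAA within 50 bases of the start had a median of -0.066 and 61.9% of them were lower, while the 8755 without it had a median of -0.0018 and 50.3% of them were lower. A match of these letters is a description of the sequence and not a measured binding site, and no test was made of these differences.

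Genes that bring cells into mitosis were among the lower ones after Fn1 knockdown. Of the 10 mitotic entry kinases, cyclins and regulators, 7 were lower by 1.5-fold (3.32% of all genes were), and their median difference was -0.68. Over all genes the median was -0.0028. The order of the roles, which hold few genes each, was not tested. Plk1 (ENSMUSG00000030867.7, GRCm38 chromosome 7, 122159439 to 122169873, plus strand), the Polo-like kinase that acts from mitotic entry to cytokinesis, had 40.2 FPKM in control cells, 32.8 FPKM with NELL2 and 19.1 FPKM after Fn1 knockdown, a difference of -1.04 that was called. Ccnb2, a B-type cyclin, was at 23.7, 21.7 and 12.4 FPKM in the same order. The other B-type cyclin, Ccnb1, was at 27.2, 27.4 and 16.9 FPKM. The A-type cyclin Ccna2 was at 32.5, 29.1 and 19.6 FPKM. Thus all 3 mitotic cyclins stood at 52.4% to 62.2% of the control.

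Cdk1 (ENSMUSG00000019942.13, chromosome 10, 69335146 to 69352938, minus strand), the kinase those cyclins bind, was the exception. Its level was 20.04 FPKM in control cells, 22.4 FPKM with NELL2 and 18.3 FPKM after Fn1 knockdown, or 91.3% of the control, the smallest difference of the 50 genes at -0.12. Cks2, a small subunit that binds cyclin-dependent kinases, was next in this role at 47.7, 42.6 and 35.6 FPKM (74.6% of the control). CDK1 activity also depends on CDC25 phosphatases, of which Cdc25b was at 6.35, 5.93 and 4.02 FPKM. Cdc25a, a relative outside the set, was at 10.3, 10.6 and 9.75 FPKM (94.4% of the control). Cdc25c was at 5.14, 5.25 and 2.55 FPKM. It stood at 49.5% of the control FPKM but its difference of -0.79 was under the 2-fold threshold, since the added 1 FPKM weighs on a gene of this level.

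Aurka, the centrosomal Aurora kinase, was at 25.8, 22.9 and 16.5 FPKM in control, NELL2 and Fn1 knockdown. Foxm1, which encodes the transcription factor that activates many genes of this set, was at 18.0, 16.0 and 10.0 FPKM (55.7% of the control). Its exons overlap other annotated genes on the same strand, as do those of Ncapd2 and Top2a, so that fragments of these 3 genes may have been shared with a neighbour.

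The spindle assembly checkpoint had the median difference nearest 0 of the 9 roles, at -0.41. Of its 5 genes, 2 were lower by 1.5-fold, beside 3.32% of all genes. Bub1, a checkpoint kinase at the kinetochore, had 13.8 FPKM in control cells, 12.6 FPKM with NELL2 and 8.34 FPKM after Fn1 knockdown. Bub1b, which encodes the inhibitor BubR1, was at 12.6, 11.9 and 7.73 FPKM in that order. These genes stood at 60.3% and 61.4% of the control. Bub3, their binding partner, was at 47.1, 45.9 and 37.1 FPKM (78.8%). Mad2l1, the inhibitor of CDC20, was at 13.7, 13.5 and 10.1 FPKM (73.4%). For Ttk, the kinase MPS1, the levels were 5.26, 5.27 and 3.83 FPKM (72.9%). The checkpoint genes thus fell into a pair near 60% and a trio above 70% of the control.

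The genes that the checkpoint acts on had a median difference of -0.61. Of these, 2 of 3 were lower by 1.5-fold, beside 3.32% of all genes. Ube2c, the ubiquitin-conjugating enzyme of the anaphase-promoting complex, had the highest control level of the set, 56.9 FPKM, and was at 50.4 FPKM with NELL2 and 32.6 FPKM after Fn1 knockdown (57.3%). Cdc20, the activator of that complex, was at 36.8, 35.0 and 23.7 FPKM. Pttg1, which encodes securin, the inhibitor of separase, was at 21.9, 24.9 and 16.1 FPKM (73.7%), and so was highest in the NELL2 library.

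In the chromosomal passenger complex, which corrects faulty attachments and later guides cytokinesis, 2 of 4 genes were lower by 1.5-fold (3.32% of all genes). The median was -0.59. Cdca8, which encodes borealin, was at 18.2, 15.6 and 10.2 FPKM in control, NELL2 and Fn1 knockdown (56.1%). Incenp, the scaffold, was at 23.0, 19.9 and 14.2 FPKM. Birc5, which encodes survivin, was at 31.3, 27.2 and 21.6 FPKM (68.8%). The kinase of the complex, Aurkb, was the least different, at 10.9, 9.89 and 8.29 FPKM (75.8%). The subunits of this complex therefore ran from 56.1% to 75.8% of the control, with the libraries in the same order for each.

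The centromere and kinetochore genes had a median difference of -0.63, and 4 of 6 were lower by 1.5-fold (3.32% of all genes). Cenpf, a large kinetochore-associated protein, had the lowest level of the set in every library, 4.45, 3.82 and 2.08 FPKM (46.7% of the control). The NDC80 complex, which binds microtubule ends, was represented by 3 subunits, of which Ndc80 was at 10.7, 9.70 and 5.99 FPKM. Nuf2 was at 14.0, 13.3 and 8.71 FPKM. For Spc25 the levels were 14.0, 20.3 and 9.18 FPKM. These subunits were at 56.2%, 62.2% and 65.6% of the control after Fn1 knockdown, whereas in the NELL2 library Spc25 was higher than in the control and the other 2 were lower. Cenpe, a kinesin at the kinetochore, was at 9.98, 9.04 and 6.09 FPKM. Cenpa, the centromeric histone H3 variant, was at 12.6, 15.1 and 8.94 FPKM, and so was also highest in the NELL2 library.

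Mitotic kinesins, the motors that separate spindle poles, move chromosomes and build the midzone, had a median of -0.69. Of these, 4 of 7 were lower by 1.5-fold, beside 3.32% of all genes. Kif23, a motor of the midzone, was at 22.7, 20.2 and 12.2 FPKM (53.9% of the control). Kif20a, which carries the passenger complex to the midzone, was at 27.0, 24.3 and 15.9 FPKM (58.7%), and its relative Kif20b was at 8.32, 7.83 and 4.70 FPKM (56.5%). These kinesins of late mitosis were all under 60% of the control. Kif11, the motor that pushes spindle poles apart, was at 12.3, 12.0 and 7.26 FPKM (59.0%). Kif15, which can share that task, was at 7.93, 7.996 and 5.91 FPKM (74.5%). The chromosome-bound Kif4 (8.71, 8.21 and 5.82 FPKM) and the microtubule depolymerase Kif2c (15.7, 13.6 and 10.8 FPKM) lay between them, at 66.8% and 68.6%.

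The largest differences were in the genes for spindle assembly and microtubule bundling, with a median of -0.90. All 5 were lower by 1.5-fold, beside 3.32% of all genes. Prc1 (ENSMUSG00000038943.16, chromosome 7, 80294450 to 80316259, plus strand), which crosslinks antiparallel microtubules in the midzone, had 35.5 FPKM in control cells, 32.0 FPKM with NELL2 and 15.2 FPKM after Fn1 knockdown, a difference of -1.18 and 42.7% of the control. Nusap1, a bundling protein of the central spindle, was at 9.98, 8.15 and 4.88 FPKM (48.9%). Ckap2, a microtubule-binding protein, was at 19.99, 19.3 and 10.1 FPKM (50.6%). Both were near the 50% mark, and Hmmr, which encodes a spindle-associated hyaluronan receptor, followed at 16.9, 14.99 and 9.16 FPKM (54.2%). Tpx2, the activator of Aurora A on the spindle, was at 28.8, 24.0 and 17.2 FPKM (59.7%). Every gene in this role was below 60% of the control, which held for no other role.

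Cytokinesis genes had a median of -0.54 and 1 of 3 was lower by 1.5-fold (3.32% of all genes). Anln, the scaffold anillin of the contractile ring, was at 31.6, 29.7 and 19.2 FPKM (60.8%). Ect2, the exchange factor that activates RhoA, was at 12.8, 11.5 and 8.55 FPKM (66.6%). Racgap1, which forms the centralspindlin complex with the product of Kif23, was at 29.3, 33.0 and 22.3 FPKM (76.4%). The partners in that complex thus stood at different percentages of the control in these single libraries, with Kif23 at 53.9%.

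Chromosome condensation and topology genes had a median of -0.64, and 4 of 7 were lower by 1.5-fold (3.32% of all genes). Mki67, the proliferation marker Ki-67 that coats mitotic chromosomes, had 15.8 FPKM in control cells, 12.0 FPKM with NELL2 and 8.54 FPKM after Fn1 knockdown (54.1%). Top2a, the topoisomerase that untangles sister DNA, was at 51.2, 52.0 and 32.5 FPKM (63.5%). Of the condensin subunits, the core pair Smc2 (18.9, 17.9 and 13.5 FPKM) and Smc4 (24.0, 19.6 and 16.6 FPKM), shared by condensin I and II, stood at 71.4% and 69.1% of the control. The subunits found in condensin I alone stood at lower percentages than that. Ncaph was at 12.9, 12.0 and 7.51 FPKM (58.2%). Ncapd2 was at 26.2, 21.7 and 15.8 FPKM (60.2%), and Ncapg, the least different of the 3, was at 7.92, 7.18 and 5.07 FPKM (64.0%).

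**Figure D3:**
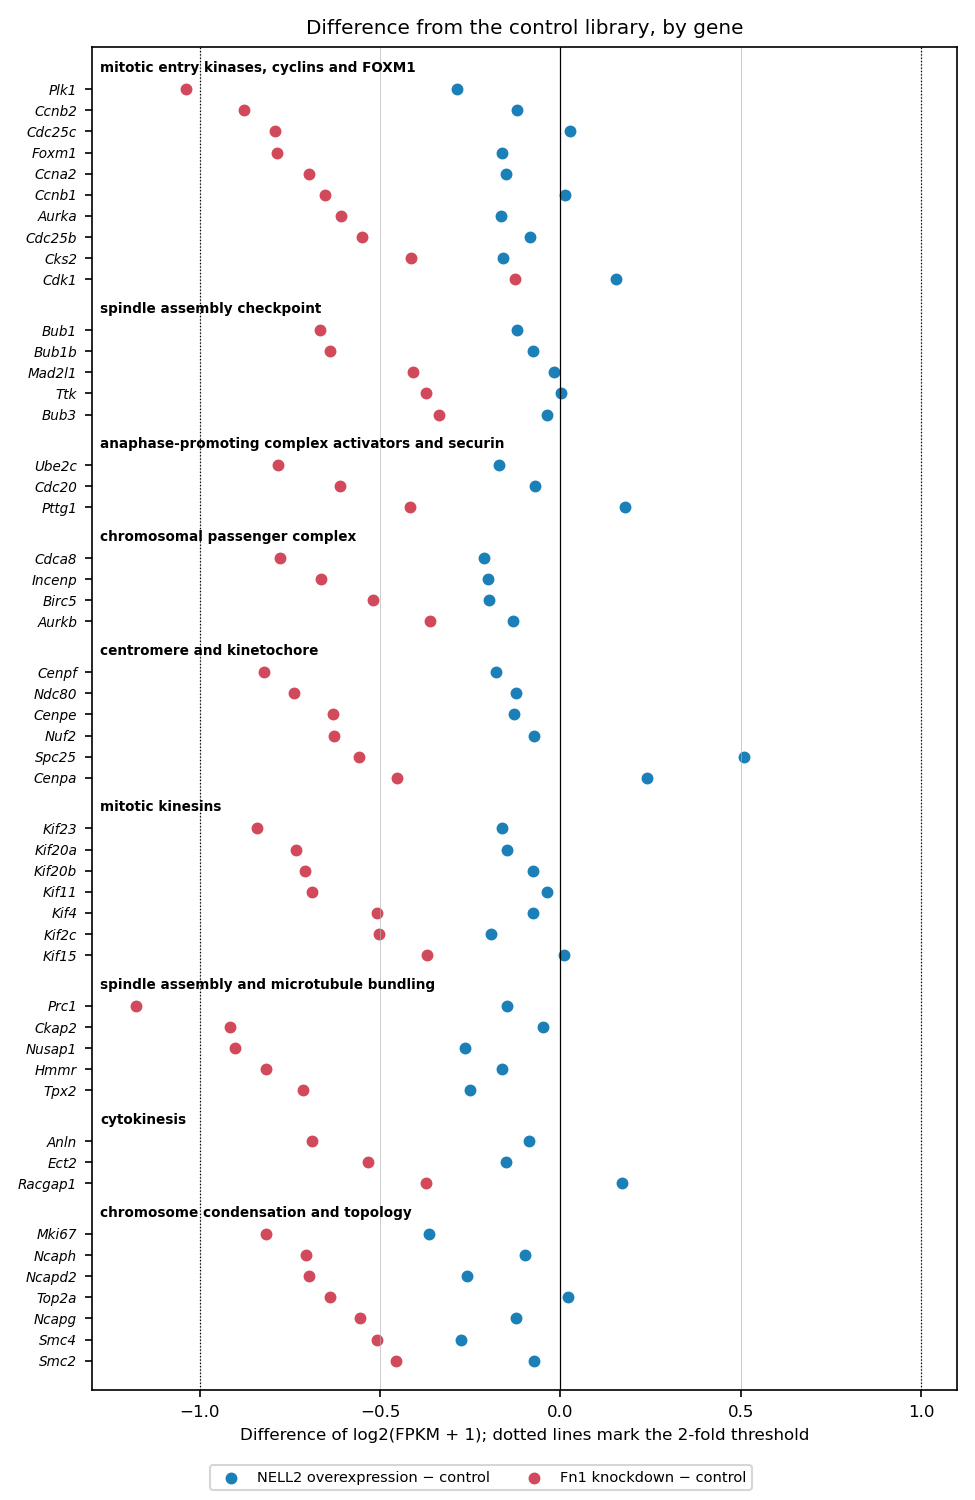
Difference from the control library on the log2(FPKM + 1) scale for each of the 50 genes, with NELL2 overexpression in blue and Fn1 knockdown in red, 1 library each, and dotted lines at the 2-fold threshold. All 50 red points are left of 0 and 2 of them (Plk1, Prc1) are past the threshold, while the blue points lie between -0.37 and 0.51.

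NELL2 overexpression was compared with the same control library. Here 40 of the 50 genes (80%) were lower and 10 higher, compared with 47.7% of all 12572 genes being lower, and the median difference was -0.12 against 0.0072 over all genes. The differences were small. None of the 50 genes was lower by 1.5-fold (1.05% of all genes were) and none was called at 2-fold (0.652% of all genes). In percent of the control FPKM the genes ran from 76.2% to 145% with quartiles at 88.7%, 91.1% and 97.0%, and 25 of them lay within 10% of the control. Their summed FPKM was 93.3% of the control, and 17.9% of all genes had a difference at or below their median.

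Mki67 stood lowest relative to the control in the NELL2 library, at 76.2% (-0.37), followed by Plk1 and Nusap1, each at 81.6%. At the other end stood Spc25 (ENSMUSG00000005233.16, chromosome 2, 69193895 to 69206194, minus strand), at 145% of the control (0.51), and Cenpa, at 120% (0.24). The remaining higher genes were Pttg1 at 114%, Racgap1 at 113%, Cdk1 at 112%, Cdc25c and Top2a at 102%, and Ccnb1, Kif15 and Ttk, whose levels were within 1% of the control. Of these, Ttk was lower than the control (-0.0065) with median-of-ratios scaling, which made 41 of 50 genes lower. By role, the chromosomal passenger genes had the lowest median (-0.20) with all 4 genes lower, and the checkpoint genes lay nearest the control (-0.038).

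The Fn1 knockdown library was also set directly beside the NELL2 library, a comparison that shares its libraries with those above. All 50 genes were lower in the Fn1 knockdown library (51.9% of all 12596 genes were), 21 of them (42%) by 1.5-fold or more (3.56% of all genes), and the median difference was -0.55. Spc25 (-1.07) and Prc1 (-1.03) were called, or 4% of the genes beside 1.29% of all genes. Levels were 45.2% to 84.4% of those with NELL2, with a median of 65.8%. Spc25 had the lowest of these percentages and was the higher gene in the NELL2 library, while Prc1 was at 90.0% of the control with NELL2.

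Other genes of mitosis outside the set were taken from 8 lists covering further kinetochore, cohesin, anaphase-promoting complex, kinesin, spindle pole, condensin II, kinase and phosphatase, and MuvB and E2F genes. After Fn1 knockdown 102 of 115 such genes were lower (50.5% of all genes were), 16 of them by 1.5-fold (3.32% of all genes), and their median was -0.32, nearer 0 than that of the 50 genes. A 2-fold call was made for 1 of the 115, which is no larger a share than the 1.23% of all genes. It was Nek2, a centrosomal kinase, with 9.17 FPKM in control cells, 8.89 FPKM with NELL2 and 3.70 FPKM after Fn1 knockdown (-1.11 against the control and -1.07 against NELL2). Of the 20 spindle pole and augmin genes, 6 were lower by 1.5-fold (Aspm, Ckap2l, Tacc3, Spag5, Dlgap5 and Troap), with Troap at 6.24, 4.97 and 3.02 FPKM. Of the other 29 kinetochore genes, 28 were lower but Cenpu alone by 1.5-fold, and the list median was -0.33.

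The medians of the 8 lists ran from -0.50 to -0.077. The other mitotic kinesins had the lowest, -0.50 over 6 genes, of which Kif18b and Kifc1 were lower by 1.5-fold. The other kinases and phosphatases (12 genes, 4 lower by 1.5-fold) and condensin II (3 genes, none by 1.5-fold) each had a median of -0.44, and the spindle pole and augmin genes -0.34. At the other end, the 17 subunits and partners of the anaphase-promoting complex, a complex present throughout the cycle, had a median of -0.077. Of these, 11 were lower and none by 1.5-fold, beside 50.5% and 3.32% of all genes. The lowest were Anapc5 (66.7% of the control, -0.57) and Fbxo5 (65.4%, -0.55), while 6 genes were higher. The 16 cohesin genes had a median of -0.24, with Esco2, the acetyltransferase of S phase, and Sgol2a, a shugoshin that protects centromeric cohesin, lower by 1.5-fold. Zwint, a kinetochore gene at 89.1, 103 and 131 FPKM in control, NELL2 and Fn1 knockdown, went the other way (0.55 after Fn1 knockdown). Among the genes for MuvB subunits, B-MYB, the RB relatives and E2F factors, 11 of 12 were lower with a median of -0.33, and E2f4 was at 28.4, 28.9 and 30.0 FPKM.

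DNA replication and S phase genes, which precede the mitotic genes in the cycle, were lower in 40 of 41 cases after Fn1 knockdown, beside 50.5% of all genes, with a median of -0.38. Pole and Rpa2 were lower by 1.5-fold, 2 of 41 beside 3.32% of all genes, and none was called. In the NELL2 library 27 of the 41 were lower and 14 higher, beside 47.7% of all genes lower, with a median of -0.043 against 0.0072 over all genes. Tyms, the thymidylate synthase, was at 9.04, 14.7 and 6.67 FPKM and was called between the Fn1 knockdown and NELL2 libraries (-1.03), the only call of the 41 genes in that comparison, in which 1.29% of all genes were called. The 116 other mitotic genes compared with NELL2 overexpression had a median of -0.052, with 80 lower, to be read against the same values over all genes.

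**Figure D4:**
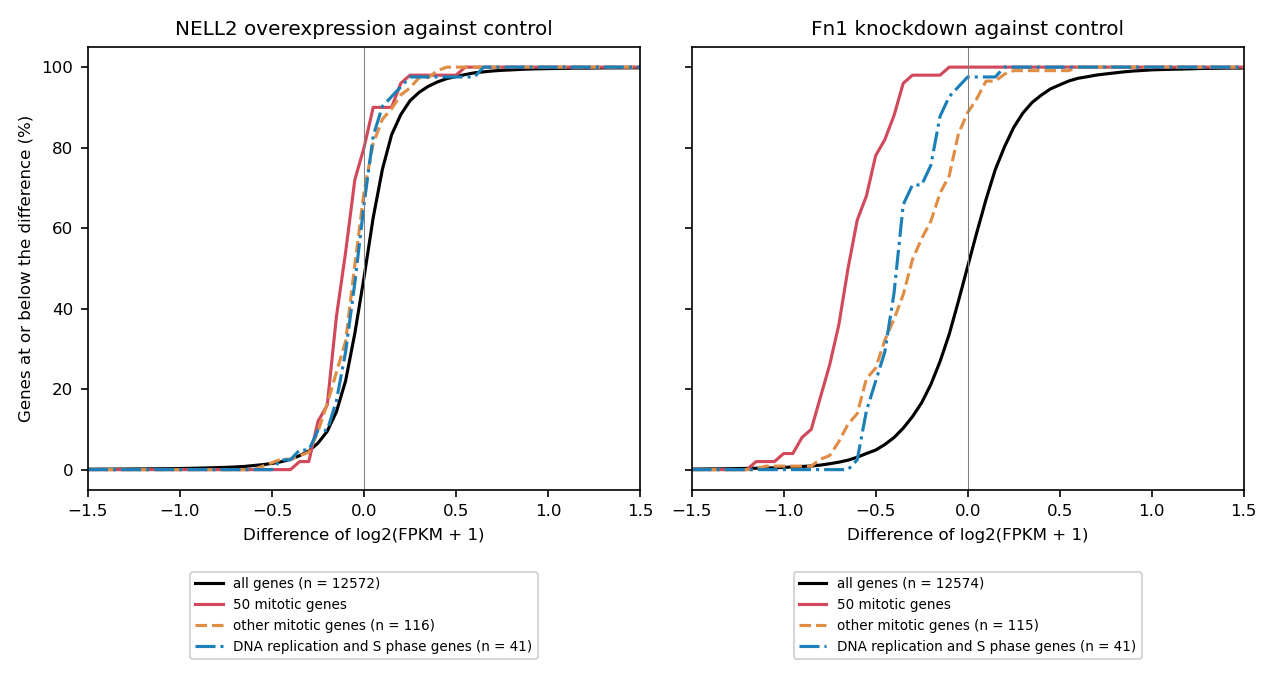
Cumulative share of genes (%) at or below each difference on the log2(FPKM + 1) scale, for NELL2 overexpression (left) and Fn1 knockdown (right) against the control library. In the right panel the 50 mitotic genes (red, median -0.65) lie left of the DNA replication and S phase genes (blue, -0.38), the other mitotic genes (orange, -0.32) and all genes (black, -0.0028), and in the left panel 54% of the mitotic genes and 22.1% of all genes lie at or below -0.1.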

How the data were processed

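Polyadenylated RNA of 3 ST2 libraries was sequenced as paired ends on an MGISEQ-2000. The deposited values were FPKM per gene, computed by the authors. The submitters' processing notes name HISAT2, DESeq and GRCm38. The program that computed FPKM, the annotation and the use of strand are not given in the sources used here. All 3 FPKM columns were used. The 50 genes and all lists were chosen with earlier results of these data known.

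With 1 library per group, differences of log2(FPKM + 1) were computed over the whole table, keeping genes that reached 1 FPKM on either side. The tools were python 3.11.15, numpy 2.4.6 and pandas 2.3.3. The code alone was tried on simulated data with large planted changes and counting error only. That trial says nothing about the smaller differences reported here or about variation between cultures. A call needed a 2-fold difference, and 1.5-fold was used to describe the lists. Alternatives were the pseudocount, threshold, filter, scaling and overlapping genes. Genes named were the 50 genes, Nell2, Fn1 and called genes of the other lists. Troap, Zwint, E2f4, Cdc25a, Anapc5, Fbxo5, the genes past 1.5-fold and the blood markers Lyz2, Cd68 and Ptprc were named after their values were seen. The value of 1 marker gene is not reported here. Gene positions are those of GENCODE M21 (GRCm38), matched by symbol. Of the table's rows, 187 shared a name and 27 had date-like names, none of them among the 50 genes. 3 genes of the other lists were matched by an older symbol.

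Depth was estimated from the most frequent low value of FPKM times length in 13862 genes with a single transcript. At that depth a transcript of 2 kb at the lowest level of the 50 genes would have 207, 181 and 101 fragments in the control, NELL2 and Fn1 knockdown libraries, a counting error (SD) of 6.96%, 7.43% and 9.94%, and at their median level 3.45%, 3.53% and 4.5%. This covers counting error only.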

Additional observations from a re-analysis of the deposited data

How the results depend on the processing

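Every difference rests on 1 library per group, so no replicate could be left out and variation between cultures is unknown. No paired analysis was possible because the groups held 1 sample each. The number of mitotic genes called depended on the cutoff and the pseudocount. For Fn1 knockdown against control, 2 were called, and 4 with a pseudocount of 0.1, 1 with a pseudocount of 5, 31 at 1.5-fold, 0 at 4-fold and 5 with the plain FPKM ratio, which was chosen after seeing the data. For Fn1 knockdown against NELL2, 2 were called, and 3 with a pseudocount of 0.1 or the plain ratio, 0 with a pseudocount of 5, 21 at 1.5-fold and 0 at 4-fold. Over all genes in these comparisons, in that order, 1.23% and 1.29% were called at 2-fold. Lower by 1.5-fold were 3.32% and 3.56% of all genes. The share of all genes was not computed under the other settings. The remaining counts and medians of the mitotic genes moved by 1.5 times or less. Median-of-ratios scaling (factors 0.998, 1.004 and 0.998), a filter at 5 FPKM or none, and leaving out the 3 overlapping genes were among these. Over all 50 genes taken singly, 1275 values kept direction and side of the threshold, 55 came to pass it (48 of them at 1.5-fold), 7 no longer did, and 1 changed direction (Ttk with NELL2, from 0.0017 to -0.0065 under median-of-ratios scaling).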
